A study of Mus musculus with 12 samples.

Results

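The transcription factors described here are 4 members of the C/EBP family (Cebpa, Cebpb, Cebpd and Cebpg) and 3 factors of the macrophage lineage (Spi1, Maf and Runx1), 7 of the 18193 genes named on the arrays. They were chosen by gene name, with earlier results of these data known. The array reads them with 21 of its 45101 probesets, sets of short probes for 1 transcript. Each gene was represented by the probeset with the highest mean over 11 of the 12 arrays, leaving out the array that stands apart (below), and its other probesets are given beside it. Values are log2 intensities after RMA, so a difference of 1 is a 2-fold difference, and they order arrays for 1 probeset but not 1 gene against another.

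The cells were peritoneal macrophages of mice injected with thioglycollate, an irritant that draws monocytes into the peritoneum. They came from mice lacking both kinases IRAK1 and IRAK2 (IRAK1/IRAK2 KO), from mice lacking IRAK2 (IRAK2 KO) and from wild-type mice, and received 100 ng/ml of MALP-2 for 0, 2, 4 or 8 h. MALP-2 is a bacterial lipopeptide sensed by TLR2 together with TLR6, and IRAK1 and IRAK2 are kinases that carry its signal on from the adaptor MyD88. Each of the 12 combinations is 1 array, and the labels do not give mouse age, strain or how many mice were pooled.

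C/EBP proteins bind DNA as pairs through a basic leucine zipper. C/EBP alpha is laid down with PU.1, the product of Spi1, when myeloid cells are specified, whereas C/EBP beta and C/EBP delta are made in activated macrophages and act on cytokine and acute-phase genes. C/EBP gamma lacks an activation domain and pairs with the others. RUNX1 and PU.1 open myeloid enhancers during development, and c-Maf, the product of Maf, marks differentiated macrophages and acts on Il10 and complement C1q genes.

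The IRAK1/IRAK2 KO array at 0 h correlated with the other arrays at only 0.764 to 0.804, against 0.954 to 0.993 among the other 11, and its hybridization spike-in median was 12.155, against 10.222 to 10.695. It entered no test. The stimulated IRAK1/IRAK2 KO arrays also had lower 5′ minus 3′ differences for actin (-4.677 to -3.873, against -3.720 to -3.179 on IRAK2 KO and wild-type arrays) and for Gapdh (-5.900 to -4.362, against -3.836 to -3.424), a sign of RNA quality or amplification. The marker ranges that follow cover 2, 4 and 8 h in IRAK1/IRAK2 KO and 0, 2, 4 and 8 h in the other genotypes. Of 15 macrophage markers on the array 14 reached the floor of 3.833, the median value of the 11 arrays, and Cd163 did not. Mean marker levels ranged from 7.814 to 8.074 in IRAK1/IRAK2 KO, from 7.995 to 8.165 in IRAK2 KO and from 7.859 to 8.281 in wild-type cells. For neutrophil markers, 8 of 12 reached the floor (Cxcr2, Mpo, Elane and Ngp did not), with means of 4.601 to 4.722, 4.872 to 4.992 and 4.844 to 5.279 in the same order. Eosinophil and mast cell markers averaged 4.028 to 4.145, 3.700 to 3.934 and 3.714 to 3.870, and mesothelial and stromal markers 5.319 to 5.380, 5.116 to 5.222 and 5.065 to 5.323. The Irak2 probeset averaged -1.28 log2 relative to wild type in stimulated IRAK1/IRAK2 KO cells (limma adjusted p 0.0011) and -1.29 in IRAK2 KO cells (adjusted p 0.0259). The main Irak1 probeset read -0.25 in IRAK1/IRAK2 KO cells (adjusted p 0.1174), and the labels do not say whether its probes lie in the deleted segment. Of its other probesets, 1448668_a_at read 4.39, 4.72 and 4.48 at 2, 4 and 8 h in IRAK1/IRAK2 KO and 5.52, 5.94 and 5.81 in wild-type cells. Probeset 1460649_at read 7.48, 7.48 and 7.30, against 7.99, 8.03 and 8.21, and 1438857_x_at 4.95, 5.19 and 5.05, against 5.24, 5.28 and 5.40, so that each was lower in IRAK1/IRAK2 KO at every stimulated time.

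MALP-2 was followed by more Cebpb and Cebpd transcript and by less Cebpa and Cebpg transcript in IRAK2 KO and wild-type macrophages. Of the lineage factors, Spi1 rose, Maf fell and the main Runx1 probeset did not pass the test. In cells lacking both kinases the main probesets of Cebpb and Cebpd read lower than in wild type at the stimulated times, and those of Cebpa and Cebpg higher. The main probesets of Spi1, Maf and Runx1 read lower, but other probesets of Maf and Runx1 did not all do so. Without the 4 h arrays the differences of Cebpa, Cebpg, Spi1 and Maf from wild type did not pass the test. Loss of IRAK2 alone moved none of the 7 past the threshold, a Benjamini-Hochberg adjusted p of 0.05 in limma. With 1 array per group, these p-values weigh a genotype difference against its constancy over 2, 4 and 8 h, and a response against its constancy over IRAK2 KO and wild type, not against the spread between mice.

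**Figure D1:**
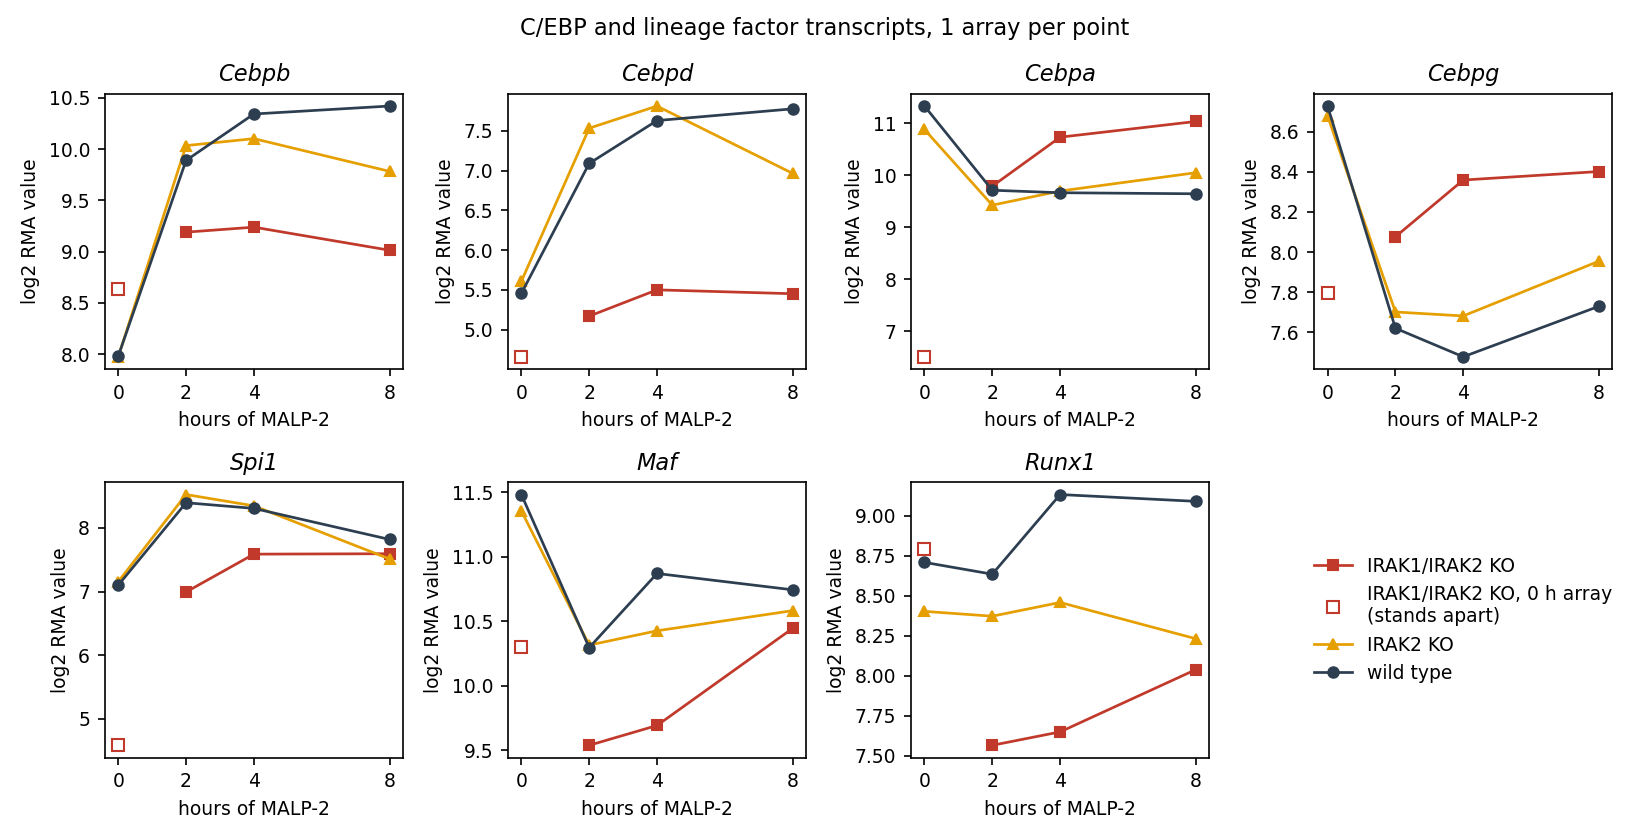
Each panel plots the log2 RMA value of 1 gene's main probeset against hours of MALP-2, 1 array per point, with IRAK1/IRAK2 KO in red squares, IRAK2 KO in orange triangles and wild type in dark circles, and with a separate vertical scale per panel. The open square is the IRAK1/IRAK2 KO array at 0 h. Cebpb and Cebpd of IRAK1/IRAK2 KO cells lie below both other genotypes at 2, 4 and 8 h, and Cebpa and Cebpg lie above them.

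Cebpb (chr2:167688915-167690432, GRCm38.p6) encodes C/EBP beta. Its main probeset read 8.63, 9.19, 9.24 and 9.01 at 0, 2, 4 and 8 h in IRAK1/IRAK2 KO cells, 7.97, 10.03, 10.10 and 9.78 in IRAK2 KO cells and 7.98, 9.89, 10.34 and 10.42 in wild-type cells. All 6 stimulated IRAK2 KO and wild-type arrays lay above the 3 stimulated IRAK1/IRAK2 KO arrays. Over IRAK2 KO and wild type together, the mean of 2, 4 and 8 h was 2.12 log2 above 0 h (SE 0.15, limma adjusted p 2.5e-05). The rise was 1.99 at 2 h, 2.25 at 4 h and 2.13 at 8 h (SE 0.18 each). Over the 3 stimulated times Cebpb was 2.10-fold lower in IRAK1/IRAK2 KO than in wild-type cells (-1.07 log2, SE 0.16, adjusted p 0.0010) and differed by -0.83 log2 from IRAK2 KO cells (adjusted p 0.0038). A dimmer probeset of the gene, near the floor at 0 h, read 3.70, 3.30, 3.47 and 4.65 in IRAK1/IRAK2 KO, 4.09, 5.07, 5.31 and 5.10 in IRAK2 KO and 4.00, 5.08, 5.65 and 5.09 in wild-type cells, with a difference of -1.47 between IRAK1/IRAK2 KO and wild type (adjusted p 0.0040).

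The window before the start of Cebpb is shown because the gene's known inducer CREB binds cyclic AMP response element (CRE) sites. In these 250 bases (RefSeq, GRCm38.p6, chr2:167688665-167688914, plus strand, ending at the base before the annotated start) capitals mark CRE half-sites, TGACG on either strand.
Cebpb: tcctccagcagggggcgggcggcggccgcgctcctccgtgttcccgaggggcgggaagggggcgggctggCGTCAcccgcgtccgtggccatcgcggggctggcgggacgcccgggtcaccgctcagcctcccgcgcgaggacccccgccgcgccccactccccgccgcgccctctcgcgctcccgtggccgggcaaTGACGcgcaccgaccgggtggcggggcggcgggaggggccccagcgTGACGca
The 3 half-sites begin at -180, -53 and -7 from the start. Of 32851 promoter windows, from 250 bases before to 50 after a start, 20.8% held at least 1 such half-site and 1.0% held 3 or more. The Cebpb window also held 3 matches to an NF-kB motif (GGG at one end and CC at the other of 10 bases, on either strand). The match beginning at -182 overlaps the first half-site, and those beginning at -23 and -22 overlap each other. Of all windows 50.8% held that motif and 13.6% held 3 or more matches to it. No C/EBP motif, TTGCNNAA on either strand, was found in the Cebpb window. Of the 7 genes, 4 had a window in the RefSeq table (Cebpa, Cebpb, Cebpg and Runx1).

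Cebpd (chr16:15887286-15889545) encodes C/EBP delta, a partner of C/EBP beta in the acute-phase response. It read 4.66, 5.17, 5.50 and 5.45 at 0, 2, 4 and 8 h in IRAK1/IRAK2 KO cells, 5.61, 7.53, 7.81 and 6.96 in IRAK2 KO cells and 5.46, 7.09, 7.63 and 7.78 in wild-type cells. The 3 stimulated IRAK1/IRAK2 KO values lay below the IRAK2 KO value at 0 h, and at 4 and 8 h they were within 0.185 log2 (the spread over genes of the difference between the IRAK2 KO and wild-type arrays at 0 h) of the wild-type value at 0 h, with no overlap with the stimulated values of either genotype. Cebpd rose by 1.94 log2 over IRAK2 KO and wild type (SE 0.21, limma adjusted p 2.086e-04). It was 4.36-fold lower in stimulated IRAK1/IRAK2 KO than in wild-type cells (-2.12 log2, SE 0.21, adjusted p 2.085e-04) and 4.17-fold lower than in IRAK2 KO cells (-2.06 log2, adjusted p 2.85e-04). The second probeset gave -1.79 (SE 0.17) and -1.78 (SE 0.17), with 5.30, 5.30 and 5.43 in stimulated IRAK1/IRAK2 KO cells, 7.04, 7.42 and 6.93 in IRAK2 KO cells and 6.75, 7.25 and 7.41 in wild-type cells.

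The main probesets of both induced genes had their lowest stimulated IRAK2 KO value at 8 h and their highest wild-type value at 8 h. At that time Cebpd read -0.81 and Cebpb -0.64 log2 relative to wild type in IRAK2 KO cells, single arrays without a test. A fit of the genotype difference on log2 time gave a slope of -0.63 per doubling of time for Cebpd (SE 0.15) and -0.39 for Cebpb (SE 0.12), both with a limma adjusted p of 0.9606. The slopes passed an unadjusted p of 0.05 for these 2 of the 7 genes, and for 4.95% of all genes. The second Cebpd probeset had the same order, with a slope of -0.39 (SE 0.17, limma adjusted p 0.9973). The dimmer Cebpb probeset did not, and read 5.10 in IRAK2 KO and 5.09 in wild type at 8 h. Its slope was 0.0068 (SE 0.27, limma adjusted p 0.9992).

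Cebpa (chr7:35119293-35121928) encodes C/EBP alpha, the family member of myeloid specification. It read 6.51, 9.79, 10.73 and 11.04 at 0, 2, 4 and 8 h in IRAK1/IRAK2 KO cells, 10.88, 9.42, 9.70 and 10.05 in IRAK2 KO cells and 11.33, 9.71, 9.66 and 9.64 in wild-type cells. The 0 h arrays were highest in IRAK2 KO and wild type, and in IRAK1/IRAK2 KO cells the 8 h array was. Cebpa fell by 1.41 log2 in IRAK2 KO and wild-type cells (SE 0.16, limma adjusted p 2.242e-04). It stood 0.85 log2 higher in stimulated IRAK1/IRAK2 KO than in wild-type cells (SE 0.22, adjusted p 0.0139) and 0.80 higher than in IRAK2 KO cells (adjusted p 0.0193). At 2 h the IRAK1/IRAK2 KO and wild-type values, 9.79 and 9.71, were closer than 0.185 log2. Without 8 h the difference from wild type was 0.57 (adjusted p 0.0937) and without 4 h 0.73 (adjusted p 0.1188). The slope of that difference was 0.66 per doubling of time (SE 0.15, adjusted p 0.1473).

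Cebpg (chr7:35046422-35056566) lies on the same chromosome as Cebpa and encodes C/EBP gamma. Its main probeset read 7.80, 8.08, 8.36 and 8.40 at 0, 2, 4 and 8 h in IRAK1/IRAK2 KO cells, 8.68, 7.70, 7.68 and 7.95 in IRAK2 KO cells and 8.73, 7.62, 7.48 and 7.73 in wild-type cells. With this probeset the stimulated IRAK1/IRAK2 KO arrays were all above the stimulated arrays of the other genotypes. With 1451639_at they overlapped, at 7.38, 7.77 and 7.34 against 7.16, 7.25 and 7.40 in IRAK2 KO cells. Cebpg fell by 1.01 log2 in IRAK2 KO and wild-type cells (SE 0.09, limma adjusted p 8.679e-05). It was 1.59-fold higher in stimulated IRAK1/IRAK2 KO than in wild-type cells (0.67 log2, SE 0.12, adjusted p 0.0024). Its other probesets gave 0.45 (adjusted p 0.0421) and 0.29 (adjusted p 0.1147) for the same difference, tested over 18929 probesets. Relative to IRAK2 KO the main probeset gave 0.50 (limma adjusted p 0.0104). The others gave 0.22 (adjusted p 0.2895) and 0.33 (adjusted p 0.0880). The call against wild type was lost without 4 h (0.56, adjusted p 0.0531).

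Spi1 (chr2:91082374-91115759) encodes PU.1, an ETS factor needed for macrophages and B cells. Its only probeset read 4.59, 6.99, 7.59 and 7.59 at 0, 2, 4 and 8 h in IRAK1/IRAK2 KO cells, 7.15, 8.52, 8.35 and 7.51 in IRAK2 KO cells and 7.10, 8.39, 8.30 and 7.82 in wild-type cells. IRAK1/IRAK2 KO cells were low at 2 h, and at 8 h they lay between the other genotypes' values. Spi1 rose by 1.02 log2 over IRAK2 KO and wild type (SE 0.11, limma adjusted p 1.617e-04), by 1.33 at 2 h and by 0.54 at 8 h (adjusted p 0.0150, or 0.0701 with the stimulated IRAK1/IRAK2 KO arrays in the fit). Stimulated IRAK1/IRAK2 KO cells were -0.78 log2 relative to wild type (SE 0.25, adjusted p 0.0352) and -0.74 relative to IRAK2 KO (adjusted p 0.0466). The difference from wild type was -0.47 without 2 h (adjusted p 0.1401) and -0.81 without 4 h (adjusted p 0.1419), and the one from IRAK2 KO passed under 6 of 11 alternative settings. In a bulk sample, fewer cells of a type and less transcript per cell cannot be told apart.

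Maf (chr8:115703253-115706894) encodes c-Maf and is read by 6 probesets. The main one read 10.30, 9.54, 9.69 and 10.45 at 0, 2, 4 and 8 h in IRAK1/IRAK2 KO cells, 11.36, 10.32, 10.43 and 10.58 in IRAK2 KO cells and 11.48, 10.30, 10.87 and 10.74 in wild-type cells. IRAK1/IRAK2 KO was lowest at each time, and its 8 h value lay within the stimulated range of the other genotypes. Maf fell by 0.88 log2 in IRAK2 KO and wild-type cells (SE 0.11, limma adjusted p 3.34e-04). The 5 probesets that could be tested all fell, by 0.88 to 1.78 log2, with adjusted p of 5.858e-04 or less.

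For the genotype difference the Maf probesets split. The main one was -0.75 log2 relative to wild type in stimulated IRAK1/IRAK2 KO cells (SE 0.17, limma adjusted p 0.0085, or 0.1084 without 4 h). Probeset 1437473_at gave -1.99 (adjusted p 5.443e-04) and 1444073_at gave -1.56 (adjusted p 0.0068). The first of these read 5.36, 5.70 and 6.67 in IRAK1/IRAK2 KO cells at 2, 4 and 8 h, against 7.45, 8.23 and 8.03 in wild-type cells. Probesets 1435828_at and 1447849_s_at gave 0.16 (adjusted p 0.4551) and 0.01 (adjusted p 0.9392). The second of these read 5.58, 6.16 and 6.27 in IRAK1/IRAK2 KO cells and 5.74, 6.05 and 6.18 in wild-type cells, so that each time point lay within 0.185 log2. The labels do not say which Maf transcripts each probeset reads.

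Runx1 (chr16:92601466-92826074) encodes the DNA-binding partner of CBF beta. Its main probeset read 8.79, 7.57, 7.65 and 8.04 at 0, 2, 4 and 8 h in IRAK1/IRAK2 KO cells, 8.40, 8.37, 8.46 and 8.23 in IRAK2 KO cells and 8.71, 8.63, 9.13 and 9.09 in wild-type cells. At each stimulated time IRAK1/IRAK2 KO read lowest, IRAK2 KO between and wild type highest, with 1 array each. The mean of the stimulated arrays differed from 0 h by 0.10 log2 over IRAK2 KO and wild type (SE 0.13, limma adjusted p 0.5783). Stimulated IRAK1/IRAK2 KO cells were -1.20 log2 relative to wild type (2.30-fold lower, SE 0.16, adjusted p 5.958e-04) and -0.60 relative to IRAK2 KO (adjusted p 0.0154). IRAK2 KO cells were -0.60 relative to wild type with an adjusted p of 0.1451, or 0.0394 in a fit of those genotypes alone.

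The Runx1 probesets also split. Below wild type in stimulated IRAK1/IRAK2 KO cells were 1422865_at (-0.77, limma adjusted p 0.0057) and 1427650_a_at (-0.44, adjusted p 0.0477). Probeset 1440878_at was above wild type (0.57, adjusted p 0.0122), reading 7.90, 8.44 and 8.46 in IRAK1/IRAK2 KO cells, 6.97, 7.55 and 7.84 in IRAK2 KO cells and 6.98, 8.07 and 8.04 in wild-type cells at 2, 4 and 8 h. The last pair of probesets lay near the floor and gave -0.22 each (adjusted p 0.3197 and 0.2343). With the mean of all probesets, the difference from IRAK2 KO was -0.12 (adjusted p 0.4435). The response to MALP-2 over IRAK2 KO and wild type differed between probesets too. Probeset 1440878_at fell by 0.94 log2 at 2 h (adjusted p 7.568e-04) and by 0.34 over the stimulated mean (adjusted p 0.0375). Probeset 1422865_at fell by 0.38 at 2 h (adjusted p 0.0297) and differed by -0.06 over the stimulated mean (adjusted p 0.6274). The lower 5′ minus 3′ differences of stimulated IRAK1/IRAK2 KO arrays move with the genotype across these probesets, and their part in the split was not tested.

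**Figure D2:**
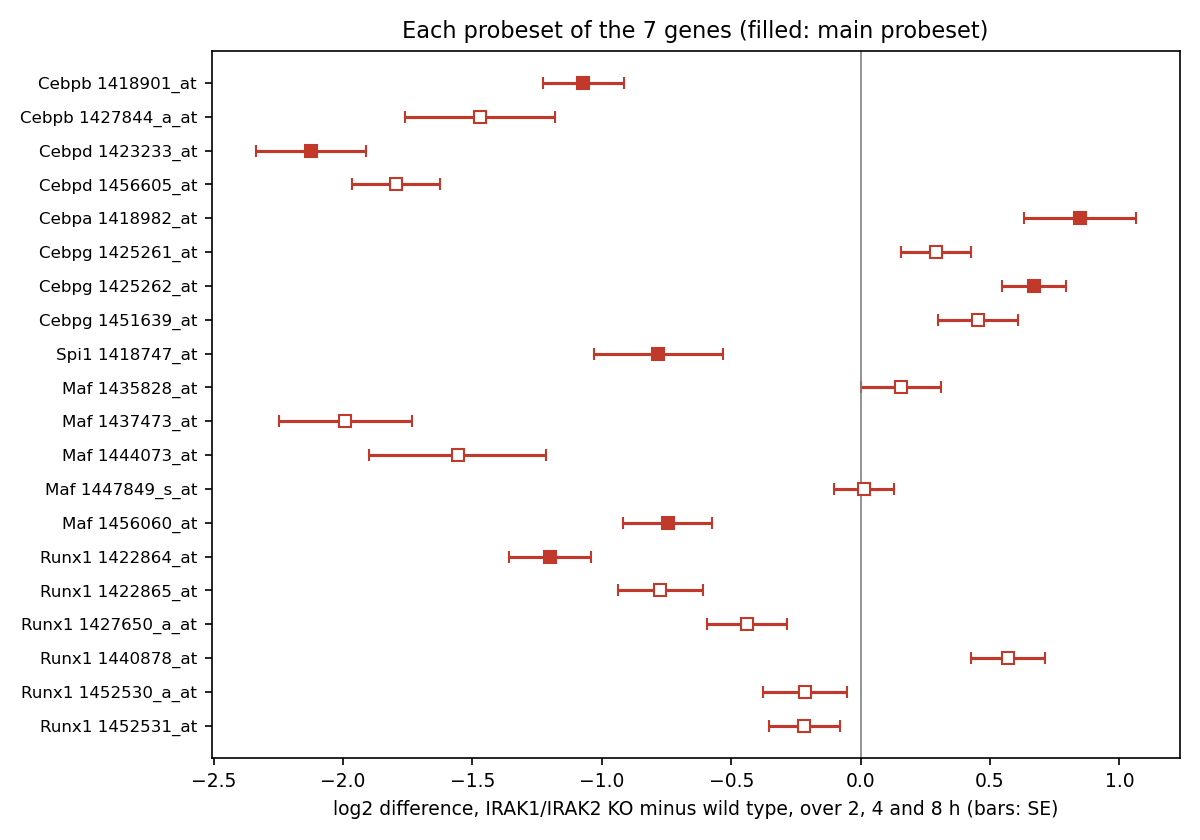
Each row is 1 probeset of the 7 genes that could be tested, with the log2 difference of IRAK1/IRAK2 KO minus wild type over 2, 4 and 8 h on the horizontal axis and its limma SE as a bar. Filled squares are main probesets. The probesets of Cebpb and Cebpd lie below 0, those of Cebpg above it, and those of Maf and Runx1 on both sides.

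Set against all genes, the response calls were common. Of the 7 genes 3 rose (18.9% of 10799 genes tested) and 3 fell (28.2%) over the stimulated mean in IRAK2 KO and wild type. Between IRAK1/IRAK2 KO and wild type, 5 were lower (17.3% of 10852 genes) and 2 were higher (23.7%). Between IRAK1/IRAK2 KO and IRAK2 KO the same 5 were lower (16.7%) and the same 2 higher (22.1%). Both contrasts share the IRAK1/IRAK2 KO arrays, so their calls are not separate evidence. Without 4 h, 3 of the 7 passed against wild type (Cebpb, Cebpd and Runx1), with 19.5% of all genes in place of 41.1%, and 1 against IRAK2 KO (Cebpd), with 14.5% in place of 38.8%. Without 2 h, 4 passed against IRAK2 KO (the C/EBP members), with 27.5% of all genes. The 5′ minus 3′ differences and the neutrophil marker means were also lower on the stimulated IRAK1/IRAK2 KO arrays. The eosinophil and mast cell marker means were higher there. The part of these shifts in the differences of the 7 genes was not tested.

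In IRAK2 KO cells against wild type limma called 0 of the 7 higher (0.415% of all genes) and 0 lower (0.350%), and Runx1 alone passed an unadjusted p of 0.05, as did 13.62% of all genes. The differences ranged from -0.60 for Runx1 to 0.17 for Cebpg. No slope of a genotype difference on log2 time was called for any of the 7, for IRAK1/IRAK2 KO minus wild type (0.0276% of all genes higher, 0.111% lower), for IRAK1/IRAK2 KO minus IRAK2 KO or for IRAK2 KO minus wild type (0% higher and 0.00921% lower in both). At an unadjusted p of 0.05, 3 slopes passed for IRAK1/IRAK2 KO minus wild type (Cebpa, Cebpb and Spi1, with 14.97% of all genes) and 2 for IRAK1/IRAK2 KO minus IRAK2 KO (Cebpd and Spi1, with 13.03%).

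**Figure D3:**
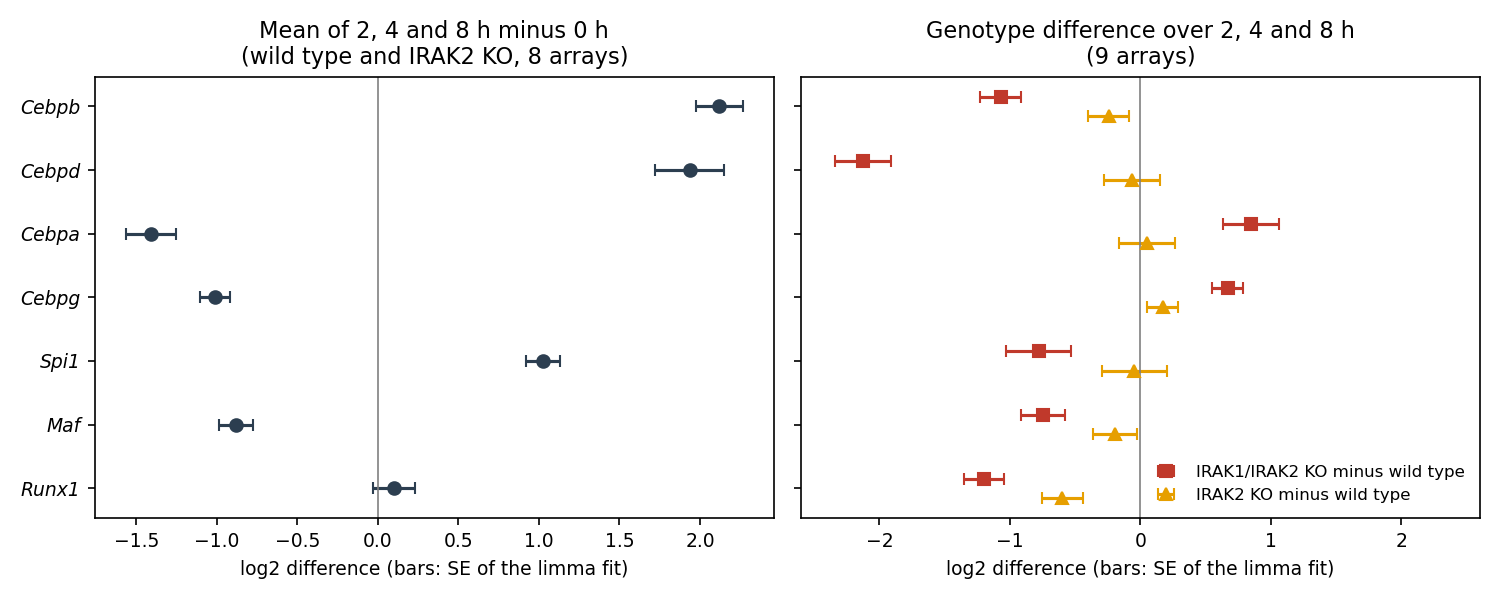
The left panel shows, for each of the 7 genes, the log2 difference of the mean of 2, 4 and 8 h minus 0 h over IRAK2 KO and wild type, and the right panel the genotype differences over the stimulated arrays, with IRAK1/IRAK2 KO minus wild type as red squares and IRAK2 KO minus wild type as orange triangles. Bars are limma SEs. Cebpb and Cebpd are far right in the left panel and left in the right panel, and Cebpa and Cebpg are the reverse.

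The induced genes Cebpb and Cebpd were set against a group of 4 genes, Spi1, Maf, Runx1 and the myeloid-specification gene Cebpa, by the mean log2 change of each group from 0 h. For IRAK1/IRAK2 KO the change was taken from the mean 0 h level of IRAK2 KO and wild type, which adds any constant difference of genotype or array. The induced genes changed by 0.43, 0.62 and 0.48 at 2, 4 and 8 h in IRAK1/IRAK2 KO, by 1.99, 2.17 and 1.58 in IRAK2 KO and by 1.77, 2.27 and 2.38 in wild-type cells. The group with Cebpa changed by -1.08, -0.64 and -0.27 in IRAK1/IRAK2 KO, by -0.29, -0.22 and -0.35 in IRAK2 KO and by -0.40, -0.16 and -0.33 in wild-type cells. The gap between the groups was thus 1.51, 1.25 and 0.75 in IRAK1/IRAK2 KO, 2.28, 2.38 and 1.94 in IRAK2 KO and 2.17, 2.43 and 2.71 in wild-type cells, widest at 8 h in wild type and narrowest at 8 h in IRAK1/IRAK2 KO. The mean of the 4 genes hides opposite changes, since Spi1 rose while Cebpa and Maf fell. Without Cebpa, a comparison chosen after the data were seen, Spi1, Maf and Runx1 averaged -1.002, -0.72 and -0.34 in IRAK1/IRAK2 KO, 0.10, 0.10 and -0.20 in IRAK2 KO and 0.01, 0.34 and 0.12 in wild-type cells, so that in wild type the sign of the group mean rested on Cebpa. The gap was then 1.43, 1.34 and 0.82 in IRAK1/IRAK2 KO, 1.89, 2.06 and 1.78 in IRAK2 KO and 1.76, 1.93 and 2.26 in wild-type cells. Against that baseline, Cebpb averaged 1.17 above 0 h in IRAK1/IRAK2 KO, Cebpd -0.16, Cebpa -0.59, Spi1 0.26, Maf -1.53 and Runx1 -0.80. Of the 7 genes, 1 was at least 2-fold higher (Cebpb, with 3.53% of all genes) and 1 at least 2-fold lower (Maf, with 4.15%). That rise of Cebpb was seen with its main probeset only. The dimmer Cebpb probeset read 3.30, 3.47 and 4.65 in stimulated IRAK1/IRAK2 KO, against 4.09 and 4.00 at 0 h in IRAK2 KO and wild type. Against its own 0 h array, Cebpa of IRAK1/IRAK2 KO averaged 4.01 higher, the opposite direction, and the main Cebpb probeset averaged 0.51 higher. In that comparison 2 of the 7 were at least 2-fold higher (Cebpa and Spi1, with 32.8% of all genes) and 1 at least 2-fold lower (Runx1, with 10.9%).

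Across the 11 arrays Cebpb correlated with Cebpg at -0.953, with Cebpa at -0.872 and with Cebpd at 0.845, and Cebpa with Cebpg at 0.935. Spi1 correlated with Cebpb at 0.774, with Cebpd at 0.832 and with Cebpg at -0.817. Maf and Runx1 correlated with each other at 0.698 and with Cebpb at -0.372 and 0.335, and Runx1 with Cebpd at 0.671. These values describe 11 arrays that share 0 h levels and a treatment. Among 5281 genes that varied by at least 1 log2, the patterns most like Cebpb were those of the TNF receptor adaptor gene Traf1 (r 0.991), the chemokine gene Ccl5 (0.990) and Vasp (0.987). For Cebpd they were Ppfia3 (0.981), the siderophore-binding gene Lcn2 (0.978) and Acot7 (0.977). Cebpa was closest to Nlrp10 (0.979), Bicral and Fam214a (0.978 each), and Cebpg to Pdcd4 (0.989), Rassf3 and H2bc21 (0.988 each). Junb, an AP-1 gene, was closest to Spi1 (0.974), followed by Slc12a4 (0.958) and Parp8 (0.937). Rxra, a nuclear receptor gene, was closest to Maf (0.985), followed by Cebpzos (0.951) and AA386476 (0.946). Runx1 was closest to Fbxl14 (0.954), Luc7l and the G-CSF receptor gene Csf3r (0.950 each).

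Of 28 tested genes listed as C/EBP beta and delta targets in activated macrophages, 21 were lower and 3 higher in stimulated IRAK1/IRAK2 KO than in wild-type cells, with a median of -1.81 log2 against 0.07 over all genes, of which 17.3% were lower and 23.7% higher. A gene could pass the floor through the genotypes in which it was high, so these counts describe the genes that passed it. Lcn2, the siderophore-binding gene, read 3.17, 3.36 and 3.42 at 2, 4 and 8 h in IRAK1/IRAK2 KO cells, all under the floor, against 9.57, 10.91 and 11.51 in wild-type cells, and was at least 114-fold lower. The cytokine gene Il1b read 6.16, 3.79 and 4.09 in IRAK1/IRAK2 KO cells, against 12.33, 12.33 and 12.29 in wild-type cells. The chemokine genes Cxcl1 (-5.68) and Ccl3 (-4.75) were also lower. The list shares 5 genes with the neutrophil markers, of which 4 were tested (S100a8 -1.55, Camp -1.18, Mmp9 -0.28 and S100a9 -0.11), and the part of neutrophils was not tested. Higher were the elastase gene Mmp12 (0.93, limma adjusted p 5.31e-04), Vegfa (0.86) and Lbp (0.36). In the response of IRAK2 KO and wild type, 23 of 27 rose and 3 fell (18.9% and 28.2% of all genes), with a median of 2.22. NF-kB and other factors act on most of these genes too, and 1 of the 28 was called between IRAK2 KO and wild type (Ptx3, -2.05, adjusted p 0.0038), with 12 at an unadjusted p under 0.05 (13.62% of all genes). Without 4 h and without 8 h Ptx3 had an adjusted p of 0.1104 and 0.0602.

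Several targets carried the C/EBP motif TTGCNNAA, on either strand, in the window from 250 bases before to 50 after their start. It was found in 10 of the 25 target genes that had a window (40.0%) and in 12.2% of 27025 genes. The genes were listed because they were already named as C/EBP targets, so the higher share is not separate evidence. The matches of 7 targets, picked after their values were seen, are shown in capitals with 11 bases on each side (RefSeq, GRCm38.p6, on the gene's strand), and those of C3, Ngp and S100a9 are not shown. Of the 7, Mmp12 was higher and the other 6 were lower in stimulated IRAK1/IRAK2 KO than in wild-type cells (23.7% and 17.3% of all genes). Because the 7 were picked with these values known, the count says nothing about the motif.
Il6, chr5:30012975-30013004, plus strand: acgacgtcacaTTGTGCAAtcttaataagg
Ptx3, chr3:66219819-66219848, plus strand: gtggtttaacaTTGTGCAAcctcttcagct
Lcn2, chr2:32387937-32387966, minus strand: agcccttcctgTTGCTCAAccttgcacagt
Ptgs2, chr1:150099951-150099980, plus strand: cgctgcggttcTTGCGCAActcactgaagc
Saa3, chr7:46715757-46715786, minus strand: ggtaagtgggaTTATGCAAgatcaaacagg
Cp, chr3:19957168-19957197, plus strand: attagttactcTTTTGCAAcattaaattgt
Mmp12, chr9:7344347-7344376, plus strand: cagggggaagtTTAAGCAActaaagttttc
A match of these letters is a description of the window and not a bound site. Ptx3, the gene of pentraxin 3, read 4.54, 4.01 and 3.48 at 2, 4 and 8 h in IRAK1/IRAK2 KO, 5.73, 4.77 and 4.21 in IRAK2 KO and 7.09, 7.08 and 6.67 in wild-type cells. The acute-phase gene Saa3 read 10.63, 10.69 and 10.71 in IRAK1/IRAK2 KO, 12.21, 12.59 and 12.87 in IRAK2 KO and 11.83, 12.53 and 12.96 in wild-type cells. IRAK2 KO cells thus lay between the other genotypes for Ptx3 at each time, and overlapped with wild type for Saa3. Cp, which encodes ceruloplasmin, read 6.49, 6.52 and 6.42 in IRAK1/IRAK2 KO, 6.76, 7.03 and 7.10 in IRAK2 KO and 6.67, 7.84 and 9.20 in wild-type cells. Its difference of IRAK1/IRAK2 KO minus wild type had a slope of -1.30 log2 per doubling of time (SE 0.13, limma adjusted p 0.0285), and that of Il6 a slope of -1.46 (SE 0.16, adjusted p 0.0448). With the mean of all probesets neither passed, at -0.66 for Cp (adjusted p 0.1147) and -1.46 for Il6 (adjusted p 0.0644). The difference of IRAK2 KO minus wild type for Il6 had a slope of -2.33 (SE 0.16, adjusted p 0.0276). Il6 lay under the floor on 2 stimulated IRAK1/IRAK2 KO arrays (mean 3.72, against 7.77 in wild-type cells). That limits its slope for IRAK1/IRAK2 KO, so the Il6 slopes do not order the genotypes.

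**Figure D4:**
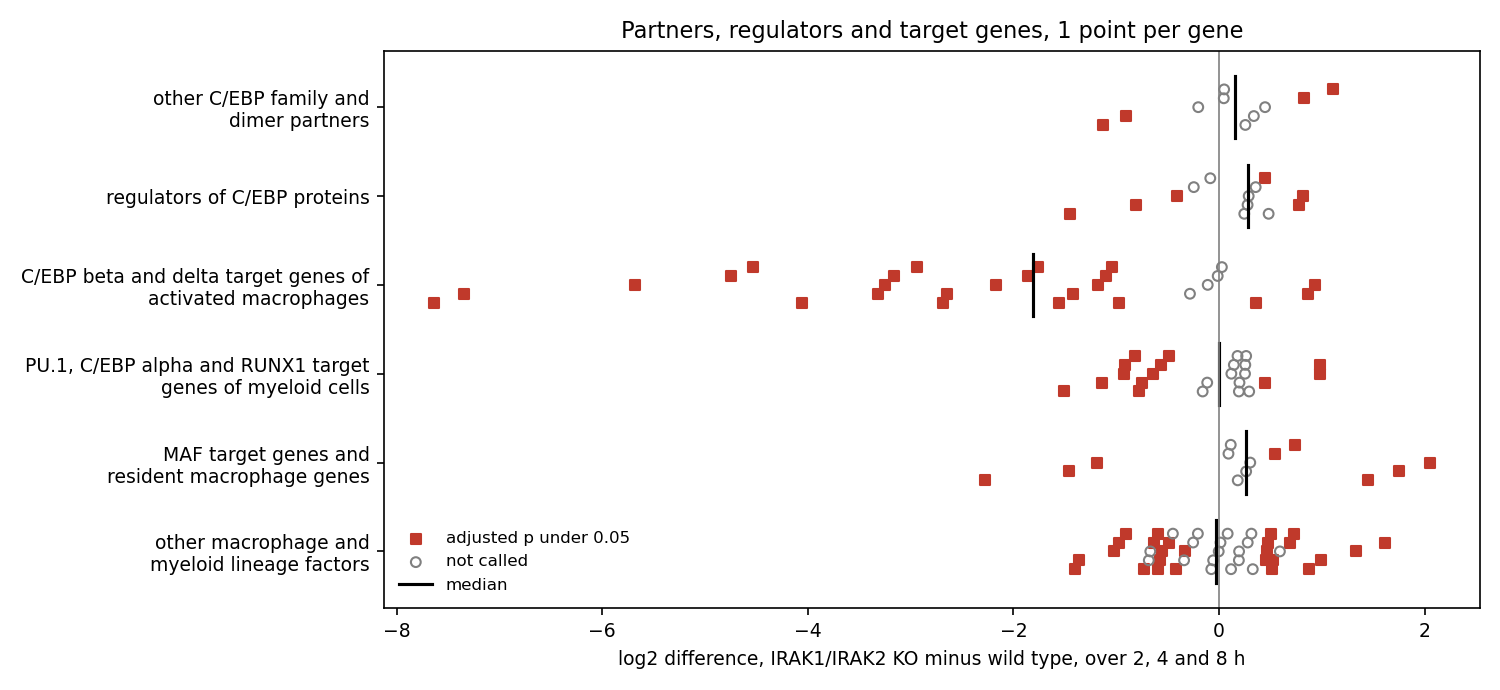
Each point is 1 gene of 6 lists, placed by its log2 difference of IRAK1/IRAK2 KO minus wild type over 2, 4 and 8 h. Red squares have a limma adjusted p under 0.05, open circles do not, and black lines are list medians. The median of the C/EBP beta and delta targets lies at -1.81, and those of the other 5 lists between -0.03 and 0.28.

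Among 10 other family members and dimer partners, 2 were higher and 2 lower in stimulated IRAK1/IRAK2 KO than in wild-type cells, against 23.7% and 17.3% of all genes, the background also for the lists that follow. Tef, a clock-controlled leucine zipper gene, was higher (1.11, limma adjusted p 3.136e-04), as was the stress gene Atf3 (0.82, adjusted p 0.0126). Nfil3, a repressor gene, was lower (-1.13, adjusted p 0.0094, or 0.0522 without 2 h and 0.0762 without 4 h). Batf, an AP-1 partner gene, was lower too (adjusted p 0.0070) and lay under the floor on all 3 stimulated IRAK1/IRAK2 KO arrays, so that it was at least 1.45-fold lower. In IRAK2 KO and wild type 4 of 9 fell after MALP-2, led by Dbp (-2.45) and Tef (-1.18), and 2 rose, against 28.2% and 18.9% of all genes, the background also for the lists that follow. Tef thus fell after MALP-2 and stood higher in IRAK1/IRAK2 KO than in either other genotype (1.07 against IRAK2 KO, limma adjusted p 4.415e-04), as the main probesets of Cebpa and Cebpg did. Atf3 fell too, but its difference from IRAK2 KO was not called (0.37, limma adjusted p 0.1931). Nfil3 went the other way, falling by 0.59 after MALP-2 and standing lower in IRAK1/IRAK2 KO.

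Of 13 regulators of C/EBP proteins, 3 were higher and 3 lower in IRAK1/IRAK2 KO cells. Trib1, whose product brings C/EBP alpha to the ubiquitin ligase COP1, read 5.71, 4.03 and 4.56 at 2, 4 and 8 h in IRAK1/IRAK2 KO, 6.80, 5.75 and 4.85 in IRAK2 KO and 6.94, 6.17 and 5.53 in wild-type cells. It was lowest in IRAK1/IRAK2 KO at each time, with a difference of -1.44 log2 from wild type (SE 0.24, limma adjusted p 0.0020), and Cop1 itself was lower (-0.80, adjusted p 0.0085, or 0.0590 without 4 h). Trib1 rose by 1.17 and Cop1 by 0.81 after MALP-2 in IRAK2 KO and wild-type cells. The coactivator gene Ep300 was 0.78 higher in IRAK1/IRAK2 KO than in wild-type cells (adjusted p 0.0018), and Trib3 was 0.82 higher (adjusted p 0.0070, or 0.2036 without probesets that can read related transcripts). Fbxw7, a ubiquitin ligase gene, fell by 0.89 after MALP-2.

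Of 24 targets of PU.1, C/EBP alpha and RUNX1, 10 were lower and 3 higher in stimulated IRAK1/IRAK2 KO than in wild-type cells, with a median of 0.00. Csf3r (-1.51, limma adjusted p 9.851e-04) and the lectin gene Cd33 (-1.13, adjusted p 6.724e-04) were lower. The receptor gene Tlr4 was higher by 0.99 (adjusted p 0.0063, or 0.0792 with the mean of all probesets) and Il7r by 0.98 (adjusted p 0.0025). Csf1r, the M-CSF receptor gene and a classical PU.1 target, read 13.13, 13.17 and 13.31 at 2, 4 and 8 h in IRAK1/IRAK2 KO, 12.93, 12.92 and 13.15 in IRAK2 KO and 12.82, 12.93 and 13.06 in wild-type cells, a difference of 0.26 from wild type with an adjusted p of 0.0667. Csf3r is also among the neutrophil markers, whose mean was lower in IRAK1/IRAK2 KO cells, and the part of neutrophils in its difference was not tested. After MALP-2, 9 of 24 rose, led by Tlr2 (3.39), and 6 fell, led by the Fc receptor gene Fcgr1 (-1.80) and Pparg (-1.60).

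Of 13 genes listed as targets of c-Maf or with genes of resident macrophages, 9 fell and 1 rose after MALP-2 in IRAK2 KO and wild-type cells, with a median of -0.66 against -0.06 over all genes. The monocyte chemokine receptor gene Ccr2 (-1.99), the phagocytic receptor gene Mertk (-1.98) and the iron exporter gene Slc40a1 (-1.88) fell most. Ccr2 read 4.06, 3.99 and 3.79 at 2, 4 and 8 h in wild-type cells, near or under the floor of 3.833, which limits the size of its fall. Between IRAK1/IRAK2 KO and wild type, 5 were higher and 3 lower. The clotting factor gene F13a1 (-2.27, limma adjusted p 1.247e-05) and C1qa were lower (-1.45, adjusted p 0.0094, or 0.0794 without 2 h and 0.0720 without 4 h). C1qb and C1qc, the other chains of the same complement protein, gave 0.09 (adjusted p 0.516) and 0.12 (adjusted p 0.466). Slc40a1 (2.05) and the mannose receptor gene Mrc1 (1.75) were higher. Mrc1 read 9.26, 9.08 and 9.13 at 2, 4 and 8 h in IRAK1/IRAK2 KO, 8.45, 7.74 and 7.54 in IRAK2 KO and 7.99, 7.36 and 6.87 in wild-type cells. IRAK1/IRAK2 KO was highest and wild type lowest at each time, with 1 array each, and the IRAK2 KO and wild-type values overlapped across times.

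Of 44 other macrophage and myeloid lineage factors, 12 were higher and 14 lower in stimulated IRAK1/IRAK2 KO than in wild-type cells, with a median of -0.03. Klf4 (1.61, limma adjusted p 3.802e-04) and Bhlhe40 (1.33, adjusted p 3.283e-04) were higher, and Nr1h3, which encodes LXR alpha (-1.40, adjusted p 0.0021), and Ets2 (-1.36, adjusted p 9.429e-04) were lower. After MALP-2, 13 rose and 16 fell in IRAK2 KO and wild-type cells, with Ets2 (3.22), Maff (2.03) and Tfec (1.66) rising most and Irf8 falling by 1.75. Cbfb, the gene of the RUNX1 partner, was lower in IRAK1/IRAK2 KO than in wild-type cells (-0.33, adjusted p 0.0384).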

How the data were processed

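RNA of 12 cell samples was hybridized to Affymetrix arrays after NuGEN Ovation amplification, per the labels' protocols. The deposited log2 values were made with RMA, per the submitters' processing notes; the version was not given in the sources used here. RMA corrects background, equalizes distributions between arrays and summarizes probes. No further normalization was applied. Of 45101 probesets, 34958 had 1 gene symbol, 932 several and 9211 none, and 34741 symbols were updated by gene identifier. The members and gene lists were chosen with earlier results of these data known.

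Each gene used its probeset with the highest mean over 11 arrays. Genes with a mean at or above 3.833 over the fitted arrays were tested with limma 3.58.1 (R 4.3.3), with Benjamini-Hochberg adjustment over all genes tested. Genotypes were compared over the 9 stimulated arrays with time as an additive factor (10852 genes, 4 residual degrees of freedom). The response used the 8 IRAK2 KO and wild-type arrays (10799 genes, 3 residual degrees of freedom). Slopes on log2 time left 2 residual degrees of freedom. The procedure was checked on simulated data. From each list, the called genes with the largest differences were named, besides genes tied to a member, which were picked after their values were seen. Alternatives changed the centring, floor, probesets, variance trend, genotypes or times fitted. Python 3.11.15, pandas 2.3.3 and matplotlib 3.10.9 were used. The number of arrays limits the precision.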

Additional observations from a re-analysis of the deposited data

How the results depend on the processing

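No paired analysis was possible because each group has 1 array and the labels carry no replicate numbers. Against wild type, the lower Cebpb, Cebpd and Runx1 of IRAK1/IRAK2 KO cells passed under all 11 alternatives, at -1.27 to -0.90, -2.23 to -1.96 and -1.27 to -0.38 log2. Of the 7 factors, 3 passed against wild type without 4 h, and against IRAK2 KO 4 passed without 2 h and 1 without 4 h; these fits hold fewer arrays, and the share of all genes called fell with them (19.5%, 27.5% and 14.5%). Between IRAK2 KO and wild type, Runx1 passed when only those genotypes were fitted (limma adjusted p 0.0394). Tested by themselves over all stimulated arrays, its other probesets gave -0.45 to 0.03, none called. The Cebpa slope of IRAK1/IRAK2 KO minus wild type passed with a variance trend (limma adjusted p 0.0468). The share of all genes called in these alternative fits is not given here. The response calls over the stimulated mean were the same for all 7 under 10 alternatives.

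The following values changed sign, and the cause was not tested. None of the differences of IRAK2 KO minus wild type or of the slopes among them had been called. Without 8 h, IRAK2 KO minus wild type was -0.13 for Cebpa, 0.31 for Cebpd and 0.084 for Spi1, and with 2 of the 0 h arrays added Cebpa was -0.0750. With the arrays centred on their medians, Runx1 at 2 h was 0.082 above 0 h, its slope for IRAK1/IRAK2 KO minus wild type was -0.0135, and slopes for IRAK1/IRAK2 KO minus IRAK2 KO were -0.0190 for Cebpb and -0.0206 for Cebpg. With the mean of all probesets, Creb1 at 4 h was 0.0048 above 0 h, against a called -0.60 with its main probeset, and the Cebpb slope for IRAK1/IRAK2 KO minus wild type was 0.16. Cebpa of IRAK1/IRAK2 KO was -0.59 when set against the 0 h mean of IRAK2 KO and wild type in place of its own 0 h array.

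The induced minus lineage gap, averaged over 2, 4 and 8 h with the mean of all probesets, was 0.74 in IRAK1/IRAK2 KO, 1.96 in IRAK2 KO and 2.25 in wild type. In that setting 1 factor, Maf, was at least 2-fold from the substitute 0 h level in IRAK1/IRAK2 KO, where the main probesets had Cebpb (higher) and Maf (lower). The share of all genes past 2-fold is not given for that setting. With Cebpb alone the IRAK1/IRAK2 KO gap was 1.84 and with Cebpd alone 0.51. Without Cebpa among the lineage factors, an alternative chosen after seeing the data, the gap was 1.91 in IRAK2 KO and 1.98 in wild type.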
